A study of Mus musculus with 15 samples.

Results

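Regions where the cohesin subunit Rad21, the DNA-binding protein CTCF and acetylated lysine 27 of histone H3 (H3K27ac) lie together were described in immature mouse T cells. They were chosen by peak presence in 5 deposited peak lists. Overlapping Rad21 peaks of both replicates were merged and kept where the merged region held a peak of each, and 30959 such shared Rad21 regions were found on chromosomes 1 to 19 and X. Of these, 3824 (12.4%) overlapped by at least 1 bp both a CTCF peak and an H3K27ac region shared by both replicates, and these are the members. The other shared Rad21 regions were 16576 with CTCF only, 7604 with H3K27ac only and 2955 with neither. The members made up 18.7% of the CTCF-bound and 33.5% of the acetylated shared Rad21 regions.

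ChIP-seq of wild type C57BL/6 thymus gave the lists, with 1 CTCF, 2 Rad21 and 2 H3K27ac libraries of CD69-negative CD4+CD8+ cells. The 8 Hi-C samples, which include cells lacking CTCF and cells lacking CTCF and Rad21, and the 2 input samples are not analysed here. Whether replicates are separate animals is not stated, and their spread may be technical. All values below therefore describe 1 genotype at 1 stage, and the comparisons are between classes of regions within the same libraries. Peak lists carry no read counts and the depth of each library is unknown.

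CTCF binds a long, directional DNA motif and stops cohesin, the ring complex that extrudes chromatin loops and of which Rad21 is a subunit. Cohesin is also found at active promoters and enhancers, which carry H3K27ac. At the double-positive stage, with CD4 and CD8 both on the surface, thymocytes assemble the alpha chain of their receptor and await selection, which is marked by CD69.

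The sequences under the highest members show what the CTCF motif looks like in them. The members were ranked by Rad21 fold enrichment, the authors' ratio of each peak over its local background, and ordered by the worse of their ranks in the 2 replicates. Of the 10 leading members, 8 had a match to the CTCF core consensus of 13 bases with at most 2 mismatches within 50 bp of the CTCF summit, and these 8 are shown. Each line names the gene with the nearest transcription start site (TSS), with the position of the printed bases on mm9 (NCBIM37) and the strand that is read. Capitals mark the match to the consensus, with 8 bases on either side in lower case.
Snx18 (chr13:114408901-114408929, minus strand): cgtagccgCCACAAGGTGGCAgcggcggc
Ano6 (chr15:95556424-95556452, plus strand): ggagctttCCACAAGGTGGCGctctggtg
Dad1 (chr14:54858906-54858934, plus strand): aggtgcatCCACTAGATGGCGgcagagtg
Ccrn4l (chr3:50710068-50710096, minus strand): gcattcagCCACGAGGGGGCAgcattgca
Trak1 (chr9:121283852-121283880, minus strand): ctatatgtCCACTAGGTGGTGgtacaaca
Slc22a8 (chr19:8652836-8652864, plus strand): ccctgaagCCACCAGAGGACGcataggga
Acbd4 (chr11:102964121-102964149, plus strand): gtgggtttCCACCAGGGGGCGcgaggact
H2-Ob (chr17:34372106-34372134, minus strand): ttacatggCCACCAGATGGCAccagactc

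A second set shows the motif just before a TSS, the place where its strand is described further on. These are the 3 highest members whose marked match lay on the gene's own strand and whose CTCF summit lay between 20 and 100 bp upstream of the TSS. The 150 bases before the TSS are printed in the direction of the gene, and capitals mark 1 match to the consensus per gene. Chd9 encodes a chromatin remodeller, Taf1c a subunit of the RNA polymerase I selectivity factor and Iscu a scaffold for iron-sulfur clusters. The match in capitals began 31 bp before the TSS at Chd9, 78 bp before it at Taf1c and 34 bp before it at Iscu. At Chd9 the unmarked bases tgcgctctagtgg nearer to the TSS match the consensus on the opposite strand. They have 1 mismatch, as many as the match in capitals, so Chd9 is not a case of the gene's strand alone.
Chd9 (chr8:93352584-93352733, plus strand): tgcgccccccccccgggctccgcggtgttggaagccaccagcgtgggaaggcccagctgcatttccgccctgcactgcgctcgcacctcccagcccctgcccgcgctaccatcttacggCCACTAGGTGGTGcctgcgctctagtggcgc
Taf1c (chr8:122129123-122129272, minus strand): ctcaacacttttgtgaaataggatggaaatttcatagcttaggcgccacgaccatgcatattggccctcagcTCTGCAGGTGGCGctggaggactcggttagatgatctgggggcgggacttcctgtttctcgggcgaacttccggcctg
Iscu (chr5:114223706-114223855, plus strand): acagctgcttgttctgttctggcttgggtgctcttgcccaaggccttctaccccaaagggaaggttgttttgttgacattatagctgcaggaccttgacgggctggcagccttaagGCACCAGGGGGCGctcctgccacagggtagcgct

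Members were at promoters more often than the other classes. A TSS of a protein-coding gene lay within 2000 bp of 60.3% of members (95% Wilson interval 58.7 to 61.8), with 17.1% in introns, 2.20% in exons and 20.4% between genes. Within 500 bp a TSS was found for 48.9% of members. Promoters held 9.91% of CTCF-only regions, 49.5% of H3K27ac-only regions and 12.7% of those with neither. Members were wider than the other classes, with a median of 407 bp, against 285 bp for CTCF only, 381 bp for H3K27ac only and 243 bp for neither. All intervals given here cover counting error only and treat regions as independent, and differences between classes were not tested. The bases within 100 bp of the Rad21 summit had a median G+C of 57.2% in members, 48.8% in CTCF-only and 55.2% in H3K27ac-only regions. Windows like a CpG island, with G+C of at least 50% and a CpG ratio of observed over expected of at least 0.6, made up 43.4% of members, 5.48% of CTCF-only and 36.1% of H3K27ac-only regions. At promoters alone this share was 65.0% in members, 25.3% in CTCF-only and 66.8% in H3K27ac-only regions.

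Rad21 in members was about as high as at CTCF-only regions and well above the CTCF-free classes. In replicates 1 and 2 the median Rad21 fold enrichment was 11.6 and 14.0 in members, against 13.1 and 15.2 in CTCF-only regions, 5.96 and 7.31 in H3K27ac-only regions and 6.14 and 7.53 in those with neither. The quartiles of members spanned 7.34 to 20.5 in replicate 1 and 8.36 to 24.7 in replicate 2, so members and CTCF-only regions overlapped widely. Each region has 1 fold per replicate, though 17.0% and 20.9% of members, against 1.04% and 1.27% of CTCF-only regions, held more than 1 Rad21 summit. The effect of this on the medians was not tested. The log2 ratio of the medians of members over CTCF-only regions was -0.15 ± 0.046 (SD, n = 2 replicates). The median CTCF fold enrichment was 7.55 in members (quartiles 4.38 and 12.8) and 8.51 in CTCF-only regions (quartiles 5.66 and 12.1), a log2 ratio of -0.17 from the 1 CTCF list. These small differences turned with the threshold. When Rad21 and CTCF peaks needed a −log10 q of at least 5, the log2 ratio was 0.063 ± 0.035 for Rad21 (SD, n = 2 replicates) and 0.17 for CTCF. The CTCF list reaches low peaks, and 18.6% of members, against 7.35% of CTCF-only regions, rested on a CTCF peak with q above 0.05.

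**Figure D1:**
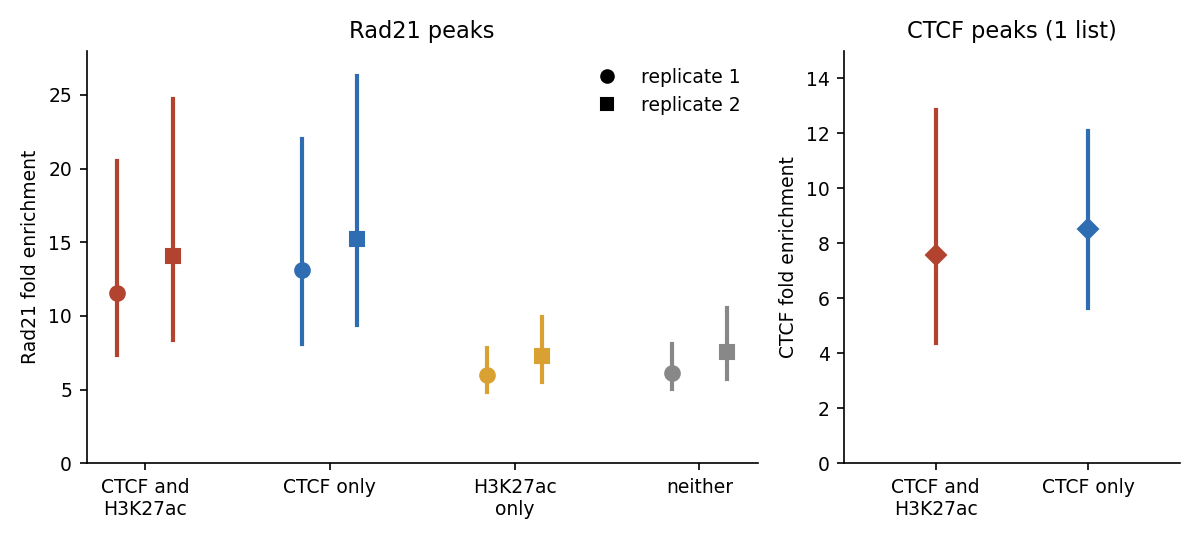
Median (marker) and quartiles (line) of the authors' fold enrichment by class of shared Rad21 region, for Rad21 in replicates 1 and 2 (left, linear axis) and for the 1 CTCF list (right, linear axis). Members had Rad21 medians of 11.6 and 14.0, near the 13.1 and 15.2 of CTCF-only regions and above the 5.96 and 7.31 of H3K27ac-only regions.

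The highest members were at genes of many kinds. Snx18 encodes a sorting nexin, and at its promoter (chr13:114408512-114409161) the Rad21 folds were 95.4 and 103.6 and the CTCF fold 22.9. The member nearest to Ano6, a phospholipid scramblase gene, lay 64826 bp upstream of its TSS between genes (chr15:95556209-95556810), with Rad21 folds of 79.8 and 98.7 and a CTCF fold of 13.4. The promoter of Acbd4, which encodes an acyl-CoA binding protein (chr11:102963940-102964410), combined Rad21 folds of 85.9 and 81.5 with a CTCF fold of 69.3. The member nearest to Slc22a8, an organic anion transporter gene (chr19:8652677-8653183), had Rad21 folds of 78.1 and 82.0 and a CTCF fold of 20.05. The member 3734 bp upstream of H2-Ob, a gene of an MHC class II-like chain that tunes antigen loading (chr17:34371891-34372322), had Rad21 folds of 64.0 and 87.4 and a CTCF fold of 22.0. By CTCF fold alone the leading members were at Gdf15, a TGF-beta family gene (70.9), Acbd4 (69.3), Exd1 (63.8), Gins4, a subunit gene of the GINS replication complex (60.5), and Atp5g2, an ATP synthase subunit gene (58.6). The Exd1 promoter was low in Rad21 all the same, with folds of 9.11 and 5.85.

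Away from promoters the leading members included a pair at loci tied to the T cell receptor. The member 8012 bp upstream of Cd247, which encodes the CD3 zeta chain (chr1:167709976-167711601), had Rad21 folds of 68.5 and 97.3 and a CTCF fold of 14.8, yet its best match to the consensus had 3 mismatches. The member nearest to Dad1, a gene beside the T cell receptor alpha locus, lay in an intron 14701 bp downstream of the Dad1 TSS (chr14:54858454-54859233). It had Rad21 folds of 70.6 and 91.5 and a CTCF fold of 23.6 and matched the consensus with 0 mismatches. The member nearest to Hlcs, the gene of the enzyme that attaches biotin to carboxylases (chr16:94480276-94480688), had Rad21 folds of 69.1 and 87.4 and a CTCF fold of 11.3 without a consensus match. The other leading members of this kind were nearest to Ccrn4l (chr3:50709612-50710731, Rad21 folds 67.6 and 109.3) and Trak1 (chr9:121283674-121284049, Rad21 folds 65.4 and 85.6). As a group, the 1519 members outside promoters had higher Rad21 than the 2305 at promoters. Their median folds were 15.2 and 18.2 outside promoters, against 10.0 and 11.7 at promoters, while the median CTCF folds were 7.31 and 7.67. In the CTCF-only class the same Rad21 medians lay closer together, at 13.3 and 15.6 outside promoters against 11.7 and 13.2 at promoters.

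Members held the CTCF consensus less often than CTCF-only regions did. It was present within 50 bp of the CTCF summit in 63.0% of members (95% Wilson interval 61.5 to 64.5) and 91.1% of CTCF-only regions (90.7 to 91.6). Windows 1000 bp downstream held it in 5.05% for members and 4.88% for CTCF-only regions. An exact match was found in 9.62% of members and 23.1% of CTCF-only regions. The shortfall was present at promoters, where 56.1% of members and 83.9% of CTCF-only regions had the consensus, and elsewhere, where 73.6% and 91.9% had it in the same order of classes. It was also present in each of 5 bins of CTCF height with about equal numbers of CTCF-bound regions. From the lowest bin to the highest, the share in members was 38.0%, 59.8%, 73.0%, 79.9% and 80.7%. In CTCF-only regions it was 83.1%, 91.6%, 92.0%, 94.5% and 93.4% over the same bins. The distance between the classes was thus widest among the lowest CTCF peaks, which made up 30.1% of members and 17.6% of CTCF-only regions.

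**Figure D2:**
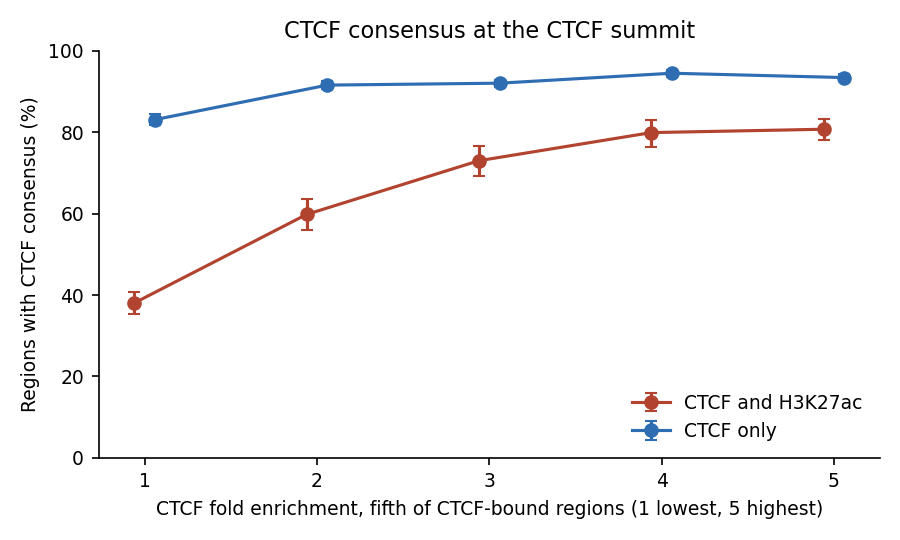
Share of regions with the CTCF consensus within 50 bp of the CTCF summit (y axis, percent) in 5 bins of CTCF fold enrichment (x axis), for members and CTCF-only regions, with 95% Wilson intervals as bars. In the lowest bin 38.0% of members and 83.1% of CTCF-only regions had it, and in the highest 80.7% and 93.4%.

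Members with and without the consensus differed in height and place. The 2410 members with it had median Rad21 folds of 14.5 and 17.4 and a median CTCF fold of 9.49. The 1414 without it had median Rad21 folds of 8.58 and 9.95 and a median CTCF fold of 4.75. Promoters held 53.6% of members with and 71.6% of members without the consensus. A CTCF peak with q above 0.05 underlay 9.54% of members with and 34.1% without it. The part of these weak CTCF calls in the lower share of consensus was not tested; counted without the CTCF peaks with q above 0.05, 70.1% of 3112 members had the consensus.

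The Rad21 summit of most members lay on the CTCF summit, with a wider spread than in the CTCF-only class. The summits were within 50 bp of each other in 84.8% of members in replicate 1 and 81.4% in replicate 2, a mean of 83.1% ± 2.42 (SD, n = 2 replicates), against 97.7% and 96.8% of CTCF-only regions. They were more than 250 bp apart in 113 members (2.96%) in replicate 1 and 120 (3.14%) in replicate 2, against 4 (0.024%) and 6 (0.036%) of the CTCF-only regions. The width of a region limits this distance. CTCF-only regions, with a median of 285 bp against 407 bp in members, leave little room for a gap over 250 bp. The part of region width in the wider spread was not tested. Within members the share within 50 bp was 91.3% and 89.1% with the consensus and 73.8% and 68.2% without it, in replicates 1 and 2. Members also held more than 1 Rad21 summit in 17.0% and 20.9% of cases, against 1.04% and 1.27% for CTCF only and 13.8% and 17.6% for H3K27ac only. The widest offset among the listed genes below was at Cd8b1, where the CTCF summit lay 3038 and 3007 bp from the Rad21 summits of a long region.

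At promoters the CTCF summit of members lay mostly before the TSS. It was upstream in 58.7% of the 2305 promoter members (95% Wilson interval 56.7 to 60.7), with a median position of -41 bp. Within 100 bp of the TSS lay 33.0% of promoter members and 13.8% of promoter regions with CTCF only. In the 100 bp before the TSS lay 21.9% of promoter members, against 11.1% in the 100 bp after it. Rad21 summits of H3K27ac-only promoters were spread evenly over these windows, with 20.6% before and 20.6% after the TSS. Members with the consensus were the more lopsided, with 22.7% before and 7.97% after the TSS, while those without it had 20.8% and 15.005%.

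**Figure D3:**
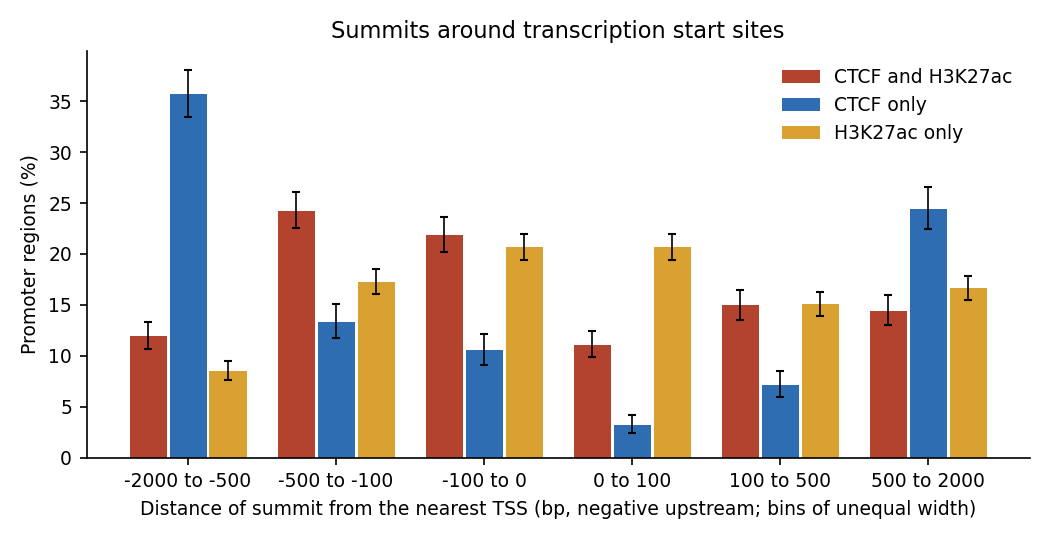
Share of promoter regions (y axis, percent) by the distance of the summit from the nearest TSS (x axis, bp, bins of unequal width), with 95% Wilson intervals as bars; the summit is that of CTCF for members and CTCF-only regions and that of Rad21 for H3K27ac-only regions. Members held 21.9% in the 100 bp before and 11.1% in the 100 bp after the TSS, and summits farther than 2000 bp away in long regions are not drawn.

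The strand of the consensus followed the direction of the gene more often than not just upstream of the TSS. Promoter members whose region had TSSs of both strands nearby were left out (126 of 1292), and of the remaining 1166 the consensus lay on the gene's strand in 58.4% (95% Wilson interval 55.6 to 61.2). In the 100 bp before the TSS this was 192 of 264 (72.7%, interval 67.1 to 77.7). The matches in capitals at Chd9, Taf1c and Iscu above are of this kind and were picked for that strand. The share was 62.5% between 500 and 100 bp before the TSS and 52.5% farther upstream. In the 100 bp after the TSS it was 58.5% of 82 (interval 47.7 to 68.6). Between 100 and 500 bp after it the share was 41.2% of 136 (33.3 to 49.6), and farther downstream 94 of 188. Genes on the plus strand gave 68.6% and genes on the minus strand 77.4% in the 100 bp before the TSS. CTCF-only promoters had the same course, with 100 of 131 (76.3%) in the 100 bp before the TSS and 41.1% between 100 and 500 bp after it, so the strand bias is not shown to be particular to members.

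**Figure D4:**
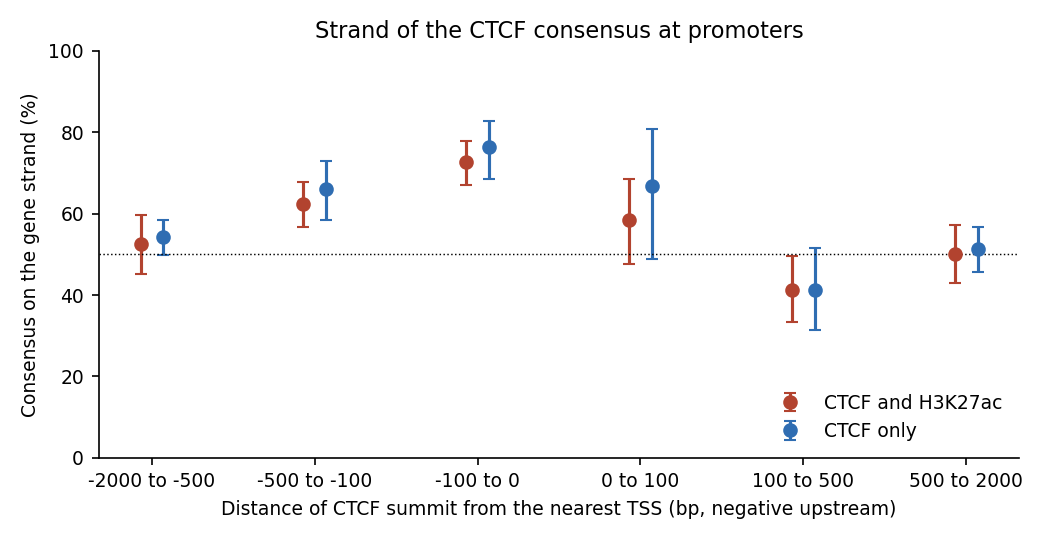
Share of consensus matches on the strand of the gene (y axis, percent) by distance of the CTCF summit from the nearest TSS (x axis, bp), for members and CTCF-only promoters, with 95% Wilson intervals as bars and a dotted line at 50%. In the 100 bp before the TSS the share was 72.7% in members and 76.3% in CTCF-only promoters.

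Members sat nearer to the edges of acetylated regions than CTCF-free Rad21 did. The 3824 members fell on 3399 of the 16230 shared H3K27ac regions (20.9%). The replicate 1 Rad21 summit lay inside the H3K27ac region in 3216 members, and of these 19.6% (95% Wilson interval 18.3 to 21.0) were in the outer 10% of its width at either edge, against 7.69% of H3K27ac-only regions (7.10 to 8.32). With replicate 2 summits the shares were 19.3% and 7.98%. The bands of 10% at both edges were counted together, and evenly placed summits would fall there about as often as members did. Over all members the contrast therefore lies in H3K27ac-only regions, which were at the edges less often than even placement gives. The difference was larger outside promoters, where 23.1% of members and 7.02% of H3K27ac-only regions lay in the outer 10%, than at promoters, with 17.3% and 8.39%. The summit lay outside the H3K27ac region that reached it in 608 members (15.9%) and 204 H3K27ac-only regions (2.68%). The edges are those of the merged lists, which covered 63.5 Mb in H3K27ac replicate 1 and 26.0 Mb in replicate 2. With H3K27ac replicate 2 alone 13.8% of members lay in the outer 10%.

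At these edges the consensus more often pointed into the acetylated region than out of it. The consensus is read here in the direction of the printed strand, and into the region means towards its longer side from the CTCF summit. Among members outside promoters in the outer 10%, 155 of 247 pointed inwards (62.8%, 95% Wilson interval 56.6 to 68.5). This was 65.2% at left and 60.7% at right edges. Farther in it was 55.3% between 10% and 30% of the width from the nearer edge and 54.2% beyond that. Where the Rad21 summit lay outside the H3K27ac region, the consensus pointed towards that region in 143 of 205 members outside promoters (69.8%, 63.2 to 75.6) and in 192 of 288 at promoters (66.7%, 61.0 to 71.9). At promoters the strand of the gene and the side of the acetylated region cannot be told apart.

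A few acetylated regions held several members. Of the 3399 H3K27ac regions with a member, 368 held at least 2, with 793 members among them. The region with Dad1 as the nearest TSS (chr14:54770698-54859414) was 88717 bp wide but did not reach that TSS. It held 5 members, all with the consensus, with Rad21 folds of 5.58 to 73.4 in replicate 1 and 7.61 to 91.5 in replicate 2. The Dad1 member printed above lay 525 bp from the edge of this region. The region named by Mad1l1, a spindle checkpoint gene (chr5:140665516-140769491), was 103976 bp wide and also held 5, of which 2 had the consensus. A region of 3893 bp at Cited2, a gene of a transcriptional co-regulator (chr10:17440365-17444257), held 4 members, 3 of them with the consensus. A region of 19799 bp at Nhp2l1 and Xrcc6 (chr15:81851750-81871548) held 4, again 3 with the consensus.

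Of 10 short DNA words searched, those of ETS and SP/KLF factors were about as frequent in members as in H3K27ac-only regions, and those of YY1, CREB and ZNF143 were less frequent in members at promoters. Words were searched on both strands within 100 bp of the replicate 1 Rad21 summit, and a match is only a description of these letters. The word CCGGAAG, bound by ETS factors, was found in 8.24% of members, 1.32% of CTCF-only, 8.84% of H3K27ac-only and 4.12% of all shared Rad21 regions. The word GGGCGG, bound by SP and KLF factors and overlapping in its G and C with many CpG islands, was found in 30.3% of members, 6.88% of CTCF-only, 27.6% of H3K27ac-only and 15.02% of all regions. At promoters alone these words were in 11.4% and 43.5% of members, and in 13.6% and 45.9% of H3K27ac-only regions. The YY1 word AANATGGC was in 4.30% of promoter members and 6.77% of H3K27ac-only promoters, and in 4.35% of all regions. The CREB word TGACGTCA was in 0.998% and 2.07%, with 0.572% over all regions, and the ZNF143 word ACTACAATT in 0.0868% and 0.531%, with 0.152% over all regions.

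The E protein and RUNX words were scarcer in members than in H3K27ac-only regions outside promoters. Outside promoters CAGCTG, an E protein word, was in 19.2% of members (95% Wilson interval 17.3 to 21.2), against 29.5% of H3K27ac-only regions (28.1 to 31.0) and 11.7% of CTCF-only regions. TGTGGTT, the RUNX word, was in 7.57% of members (6.34 to 9.01), 13.6% of H3K27ac-only (12.6 to 14.8) and 6.57% of CTCF-only regions outside promoters. Among members outside promoters the 401 without the consensus held CAGCTG in 25.2% and TGTGGTT in 9.73%, against 17.0% and 6.80% of the 1118 with it. Over all shared Rad21 regions CAGCTG was in 14.7% and TGTGGTT in 7.36%. The TCF/LEF word CTTTGAA was in 3.19% of members and 4.75% of H3K27ac-only regions, with 4.25% over all regions. In windows 1000 bp downstream it was in 4.37% and 4.69%. It was in 2.47% and 2.52% at promoters and in 4.28% and 6.93% outside them. The NRF1 word GCATGCGC was in 2.17% of members and 1.71% of H3K27ac-only regions, with 1.00% over all regions.

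Genes of double-positive cells often had a member near the TSS, and so did cohesin, Bcl2 family and ribosomal protein genes. Of 22342 protein-coding genes, 2339 (10.5%) had one within 2000 bp of a TSS, and of the 9132 with a shared H3K27ac region there, 25.6% had one. Read against these, the list of T cell surface receptors had a member at 8 of 14 genes, double-positive stage regulators at 11 of 25 and T cell receptor signalling at 8 of 20. H3K27ac was at 12, 21 and 19 genes of these lists. The cohesin and CTCF list had 8 of 15, the Bcl2 family 5 of 10 and cytosolic ribosomal proteins 11 of 25, with H3K27ac at 13, 9 and 25 genes. Proteasome subunits with 3 of 25 and cell cycle genes with 2 of 15 were near the share of all genes. H3K27ac was at 23 and 12 of these genes, so both lists lay below the 25.6% of genes with H3K27ac. Of markers of other cells 1 of 10 myeloid genes and none of the 10 neuronal and 9 liver genes had H3K27ac there, which the rule requires, so their counts of 0 members are not a result about the members. For the remaining marker lists, 4 B cell, 1 thymic epithelial and 3 erythroid genes had H3K27ac, and 1 of 9 B cell genes (Vpreb1, on a CTCF peak with q above 0.05), 1 of 9 thymic epithelial genes (Aire) and 2 of 8 erythroid genes (among them Klf1) had a member.

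**Figure D5:**
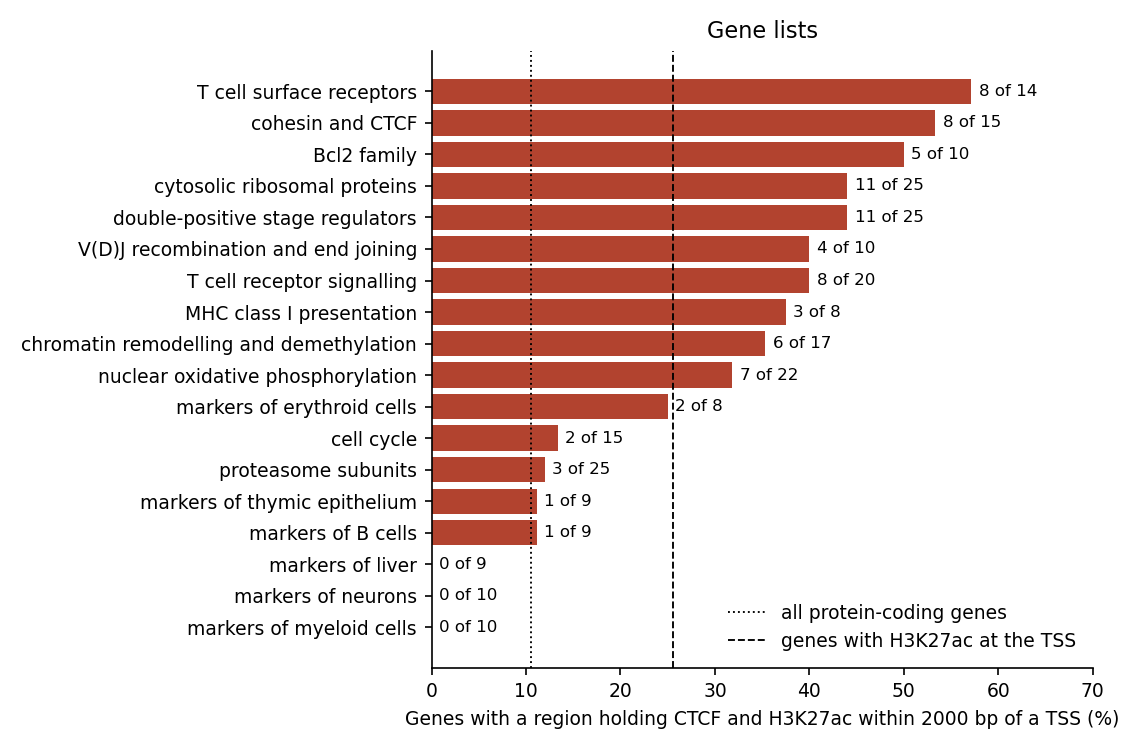
Share of the genes of each list with a member within 2000 bp of a TSS (x axis, percent), with the counts beside the bars; the dotted line is the share of all protein-coding genes (10.5%) and the dashed line that of genes with H3K27ac at the TSS (25.6%). T cell surface receptors lead with 8 of 14. The rule requires H3K27ac, which only 1 gene of the 3 lists at 0 members had.

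The members at Cd4, Cd8b1 and the Cd3d and Cd3g pair had low CTCF, unlike the Cd247 member above. At Cd4, the coreceptor for MHC class II, the member (chr6:124834841-124838705) had Rad21 folds of 12.4 and 21.1 and a CTCF fold of 2.28, with the CTCF summit 2895 bp downstream of the TSS. At Cd8b1, a chain of the coreceptor for MHC class I, the Rad21 folds were 29.1 and 26.1 and the CTCF fold 3.41. Cd3d and Cd3g, divergent genes of CD3 chains, shared a member with Rad21 folds of 24.9 and 12.2 and a CTCF fold of 2.73. The CTCF peaks at Cd8b1 and at Cd3d and Cd3g had q above 0.05. The CTCF summit of the shared member lay 141 bp upstream of the nearest Cd3g TSS. Cxcr4, a chemokine receptor gene, had a higher CTCF fold of 10.2 with Rad21 folds of 25.9 and 49.0, and so had Cd6, at 9.62 for CTCF and 27.8 and 39.5 for Rad21. The 8 surface receptor members ran from 2.28 to 10.2 in CTCF fold with a median of 4.73, and 3 of the 8 had the consensus. Other genes of that list with a member included Cd5, Cd27 and Ccr7.

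Among signalling genes 6 of the 7 members had the consensus. Csk, the kinase that restrains Lck (chr9:57493137-57493654), had Rad21 folds of 20.9 and 13.2 and a CTCF fold of 16.0, with its CTCF summit 53 bp upstream of the TSS. Cbl, a ubiquitin ligase that ends receptor signalling (chr9:44041917-44042493), had Rad21 folds of 14.1 and 29.3 and a CTCF fold of 13.6. Both matched the consensus with 0 mismatches on the strand of the gene. Rasgrp1, the activator of Ras downstream of the receptor, had Rad21 folds of 22.3 and 54.4, far apart between the replicates, and a CTCF fold of 6.12. Vav1 had Rad21 folds of 10.8 and 15.8 and a CTCF fold of 11.6, and Fyn and Prkcq completed the list with CTCF folds of 4.25 and 2.80, the Prkcq peak with q above 0.05. The matches at Csk, Cbl and Cxcr4 are printed for comparison with those above, with capitals for the consensus (mm9).
Csk (chr9:57493495-57493523, minus strand): tccaaggtCCAGCAGAGGGCGccgaccca
Cbl (chr9:44042319-44042347, minus strand): tctcttctCCAGCAGAGGGCGcaggcact
Cxcr4 (chr1:130489207-130489235, plus strand): ctgcctaaCCAGTAGGCGGCAatgttgga

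Transcription factor genes of the stage had members of widely different height. Bcl11b, a gene of T lineage commitment (chr12:109241455-109242656), had Rad21 folds of 34.0 and 63.4 and a CTCF fold of 8.43, and no consensus match. Runx1, a core T cell factor (chr16:92698776-92699430), had Rad21 folds of 46.4 and 50.5 and a CTCF fold of 8.08. Satb1, a chromatin organiser gene, had Rad21 folds of 23.3 and 26.3 and a CTCF fold of 9.88, the highest CTCF fold of the list. Ets2 had Rad21 folds of 9.18 and 27.1, a large ratio between replicates. Fli1, Ikzf3 and Gata3 had CTCF peaks with q above 0.05 and CTCF folds of 2.09, 2.88 and 3.41. The remaining regulators with a member were Ikzf1, Myb, Tox and Sox4, the Sox4 CTCF peak also with q above 0.05.

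Of the 15 genes of the cohesin machinery and of CTCF itself, 8 had a member. Ctcf (chr8:108160396-108161937) had Rad21 folds of 25.7 and 28.7 and a CTCF fold of 25.7 at its own promoter, 241 bp downstream of a TSS. Stag1, a cohesin subunit gene (chr9:100543230-100544207), had Rad21 folds of 31.3 and 25.2 and a CTCF fold of 26.998, with its CTCF summit 6 bp from the TSS. Stag2, which encodes the alternative subunit, had Rad21 folds of 31.0 and 22.3 and a CTCF fold of 20.7, and Smc3 of the ring had 18.6 and 30.9 with a CTCF fold of 8.43. Nipbl, the loader gene, had Rad21 folds of 24.96 and 22.2 and a CTCF fold of 17.4. The regulators Pds5a and Pds5b had CTCF folds of 12.7 and 17.5, and Esco1, a cohesin acetyltransferase gene, had one of 15.6 with lower Rad21 folds of 8.37 and 11.1. The median over the 8 members was 17.4 in CTCF fold, against 7.67 over all promoter members, and none rested on a CTCF peak with q above 0.05. Nipbl had 2 members and Pds5a 3, of which only the one highest in replicate 1 Rad21 was counted. The 8 are thus partly selected for height, unlike all promoter members, and the difference was not tested.

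Survival and antigen processing genes were also among the listed members. Bcl2l1, which encodes the survival factor Bcl-xL of double-positive cells (chr2:152655585-152657679), had Rad21 folds of 41.4 and 67.8 and a CTCF fold of 11.6, with the CTCF summit 70 bp upstream of the TSS. The death genes Bbc3, with Rad21 folds of 16.1 and 18.7, and Bak1, with 10.8 and 22.2, had CTCF folds of 10.5 and 11.6. Mcl1, a survival gene, and Bcl2l11, a death gene, had lower CTCF folds of 2.88 and 3.86, the Mcl1 peak with q above 0.05. Tap2, a subunit gene of the peptide transporter, had Rad21 folds of 23.2 and 29.9 and a CTCF fold of 13.5. Tap1 and the immunoproteasome gene Psmb9 shared a weak member with Rad21 folds of 4.64 and 5.81 and a CTCF fold of 2.35, again with q above 0.05. Of the recombination and end joining genes Lig4, the ligase, had the highest Rad21, with folds of 19.7 and 26.7, while Dntt, the terminal transferase, had 5.42 and 5.86 on a CTCF peak with q above 0.05. Xrcc5 and Xrcc6, which encode the Ku proteins, were the others.

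Some housekeeping genes had members with high CTCF and moderate Rad21. At Rplp0, a ribosomal stalk protein gene (chr5:116009165-116009658), the CTCF fold was 57.2 with Rad21 folds of 20.2 and 12.4. Rpl10a had a CTCF fold of 25.6 with Rad21 folds of 18.97 and 19.3, and Rpl5 had 18.0 with 9.48 and 14.5. Over the 11 ribosomal members the median CTCF fold was 10.5 and the median Rad21 folds were 11.7 and 14.5. Other ribosomal genes with a member included Rpl11, Rpl13a, Rpl27 and Rpl32. Of 22 oxidative phosphorylation genes, all with H3K27ac, 7 (31.8%) had a member, not far from the 25.6% of all genes with H3K27ac. Over these 7 the median CTCF fold was 9.48 and the median Rad21 folds were 8.93 and 8.20. Surface receptor members, by comparison, had medians of 4.73 for CTCF and 19.2 and 21.1 for Rad21, and these list medians over 7 to 11 regions were not tested against each other. The matches at Rplp0 and Rpl13a both have 0 mismatches and lie on the strand of the gene, with capitals for the consensus (mm9).
Rplp0 (chr5:116009291-116009319, plus strand): gctccgacCCAGCAGAGGGCAgcaggtct
Rpl13a (chr7:52391857-52391885, minus strand): acttgttaCCACTAGGTGGCGtgtcccgc

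Among chromatin genes, 6 of 17 (35.3%) had a member. All 17 had H3K27ac, so this is read against the 25.6% of all genes with H3K27ac, and the difference was not tested. Arid1a, a subunit gene of the BAF remodelling complex, had Rad21 folds of 42.4 and 29.3 on a CTCF fold of 2.27 with q above 0.05. Kdm1a, a histone demethylase gene, had the reverse, at 19.3 for CTCF and 8.93 and 5.38 for Rad21. Arid1b, Chd1, Ino80 and Ep300, which encodes a writer of H3K27ac, had CTCF folds of 5.32, 4.08, 4.10 and 4.99. Of the cell cycle list Myc had Rad21 folds of 17.0 and 16.7 and a CTCF fold of 4.66, and E2f3 had 14.5 and 9.62 and a CTCF fold of 9.75.

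The rule has sharp limits, and regions on either side of them differ by a few bases. The smallest overlap of a member with a CTCF peak was 5 bp, at Tpst2, and 16 members overlapped one by fewer than 50 bp. The smallest overlap with an H3K27ac region was 2 bp, at Mthfd1l, Pola2 and Zfp280d, and 78 members overlapped one by fewer than 50 bp. Just outside, a region at Mcl1 without CTCF lay 1 bp from a CTCF peak, and 511 H3K27ac-only regions (6.72%) lay within 500 bp of one. A CTCF-only region at Cmtm6 lay 1 bp from an H3K27ac region, and 312 CTCF-only regions (1.88%) lay within 500 bp of one.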

How the data were processed

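In all, 5 lists of ChIP-seq peaks were used, each from 1 library. Per the submitters' processing notes the build was mm9, and MACS2 2.1.0 is among the tools named. Control and calling thresholds: not given in the sources used here. The fold enrichment, a ratio of each peak over local background, was computed by the authors' caller and used to describe and rank peaks within a list. The −log10 p and −log10 q values were deposited as the caller wrote them, and q entered alternative settings. The score in the deposited files was not used. Summit positions in the deposited narrow lists were used as given. Depth is unknown.

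Peaks of replicates were merged and classed by overlaps of at least 1 bp on chromosomes 1 to 19 and X, with Python 3.11.15, numpy 2.4.6, pandas 2.3.3 and scipy 1.17.1. Entries with the same coordinates counted as 1 peak. Genes and TSSs came from GENCODE vM1 on NCBIM37, the assembly of mm9. The CTCF core consensus was searched on both strands. No tests were run, and shares carry 95% Wilson intervals. The functions were tested on simulated data. Named were the 10 members leading in Rad21, 5 leading in CTCF, 6 leading outside promoters, the 4 H3K27ac regions with most members and up to 8 genes per list in list order, with further list members by name only. Some genes covered by this rule are not reported here. Where a gene had several members, the one with the highest replicate 1 Rad21 fold is given. The members and gene lists were chosen with earlier results of these data known. Alternatives were a stricter q, a larger overlap, H3K27ac of either replicate, autosomes only, left-out replicates, lists matched by replicate number, and other windows and mismatch limits. One more, CTCF peaks with q of at most 0.05, was chosen after seeing the data.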

Additional observations from a re-analysis of the deposited data

How the results depend on the processing

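No paired analysis was possible because no test was run and replicate numbers of different targets do not mark shared samples in the labels. Of 81 values under alternative settings, 39 stayed within the replicate SD or the 95% interval of the reported value. With a −log10 q of at least 5 for Rad21 and CTCF, the log2 height ratios of members over CTCF only were reversed, at 0.063 for Rad21 and 0.17 for CTCF. Members then made up 9.29% of shared regions, 57.4% of them at promoters, 78.1% with the consensus, 94.8% with summits within 50 bp and 24.9% in the outer 10%. With CTCF q of at most 0.05 the CTCF ratio was reversed at 0.042, the Rad21 ratio was -0.019, and the other values were 10.1% of shared regions, 70.1%, 89.1% and 21.9% for consensus, summits and outer 10%. An overlap of 50% gave 10.8% of shared regions, 60.9% with the consensus and ratios of -0.21 and -0.27. H3K27ac of either replicate gave 15.3% of shared regions, 51.4% at promoters, 66.9% with the consensus, 85.5% with summits within 50 bp and a Rad21 ratio of -0.061. Leaving out a replicate gave 8.58 to 14.7% of shared regions, 51.6 to 63.8% at promoters, 59.7 to 66.6% with the consensus, Rad21 ratios of -0.20 to -0.061, CTCF ratios of -0.22 to -0.16, 80.1 to 85.2% with summits within 50 bp, 57.7 to 59.2% on the gene strand and 13.8 to 19.6% in the outer 10%. Lists matched by number gave 12.3% of shared regions for replicate 1 and 7.36% for replicate 2. Promoters of 500 bp held 48.9% of members. At most 1 mismatch left 34.6% with the consensus, and 100 bp on either side gave 66.9%. Within 100 bp lay 91.3% of summits, and the outer 20% at either edge held 38.0%. The gene strand share moved under no alternative. The cause of these changes was not tested. With promoters of 500 bp, 3 of 18 gene lists changed by over 1.5 times: cell cycle (1), B cells (0) and erythroid cells (0).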
